A study of Mus musculus with 12 samples.

Results

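*Nodal*, *Lefty1*, *Lefty2*, *Tdgf1*, *Smad7*, *Acvr2b*, *Inhba* and *Inhbb* are 8 genes of the Nodal and activin signalling pathway, described here by their RNA in mouse embryonic stem cells (mESCs) that lack the chromatin proteins HMGN1, HMGN2 or both. They were taken by their symbols from the count tables, which hold 23412 genes, and all 8 symbols were found. The study edited the *Hmgn1* and *Hmgn2* genes in v6.5 mESCs, a male mouse line, to ask how loss of these nucleosome-binding proteins changes gene expression. It sequenced 12 bulk RNA libraries, 3 biological replicates for each of 4 genotypes. Library totals ran from 17337908 to 31448468 counts.

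Nodal and the activins are secreted ligands of the TGF-beta family. They bring together type I and type II activin receptors, which phosphorylate SMAD2 and SMAD3, and these enter the nucleus with SMAD4. Nodal also needs a co-receptor of the Cripto family, and the pathway switches on its own inhibitors, among them the Lefty proteins and SMAD7. The pathway is active in mESCs, and in the embryo it patterns the epiblast and directs mesoderm and endoderm formation.

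The 4 groups of mESCs were WT, *Hmgn1*-/-, *Hmgn2*-/- and the double knockout *Hmgn1*-/-*Hmgn2*-/-. All were grown on gelatin in medium with serum and LIF, and RNA was collected after 48 hours. The *Hmgn1*-/- line carries a homozygous single-base deletion and the *Hmgn2*-/- line a homozygous single-base insertion, each in an early exon of its gene. Each knockout line was expanded from an edited clone, and the double knockout came from editing *Hmgn1* in the *Hmgn2*-/- line. Each genotype is therefore a single line in 3 replicates, and the effect of a genotype cannot be told apart from that of its line.

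Levels are given in every library as TMM-scaled CPM, the counts of a gene relative to the scaled total of its library, in the order of replicates 1, 2 and 3. *Hmgn1* was at 662, 599.9 and 614 CPM in WT mESCs, 138, 139 and 141 in *Hmgn1*-/- mESCs, 545, 556 and 639.7 in *Hmgn2*-/- mESCs, and 21.5, 19.9 and 21.4 in the double knockout. *Hmgn2* was at 137, 123 and 119.6 CPM in WT mESCs, 105, 113 and 109 in *Hmgn1*-/- mESCs, 50.7, 54.5 and 53.7 in *Hmgn2*-/- mESCs, and 53.8, 50.5 and 54.2 in the double knockout. Every library with an edited gene had less RNA of that gene than every library without the edit. These values are of RNA and do not show the protein. The summed level of 7 pluripotency markers, with *Pou5f1* the most abundant, ran from 4600 to 5661 CPM over the 12 libraries, and all 7 were above 3 counts in every library. Chosen after their values were seen, *Nanog* was lower (172 to 213 CPM against 238 to 272 in WT mESCs), and *Klf4* (178 to 252 against 114 to 140.3) and *Esrrb* (466 to 578 against 384 to 420.3) were higher in all 9 knockout libraries. *Pou5f1*, *Sox2*, *Zfp42* and *Dppa5a* overlapped WT mESCs over the 9 knockout libraries. By the edgeR test and limits given below, 0 of the 7 were called in any comparison with WT. Over all genes 5.98%, 5.15% and 6.3% were called. Without the limit on size 2, 1 and 2 of the 7 were higher, and 1 was lower in each. The shares over all genes were 7.28%, 3.3% and 7.79% higher, and 10.1%, 6.66% and 10.2% lower.

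Differences were tested over all genes by the quasi-likelihood method of edgeR, with *p* values adjusted after Benjamini and Hochberg, each knockout against WT in a fit of 6 libraries. A gene was called at an adjusted *p* under 0.01 with a log2 fold change (log2 FC) of at least 1 in size. The *p* values measure the spread between the replicates of a line. The 3 comparisons with WT used the same 3 WT libraries, so their values stand side by side and are not separate observations of WT. WT replicate 1 stood apart from the other WT libraries for *Lefty1* and *Lefty2*, and results that rest on it are given with and without it.

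**Figure D1:**
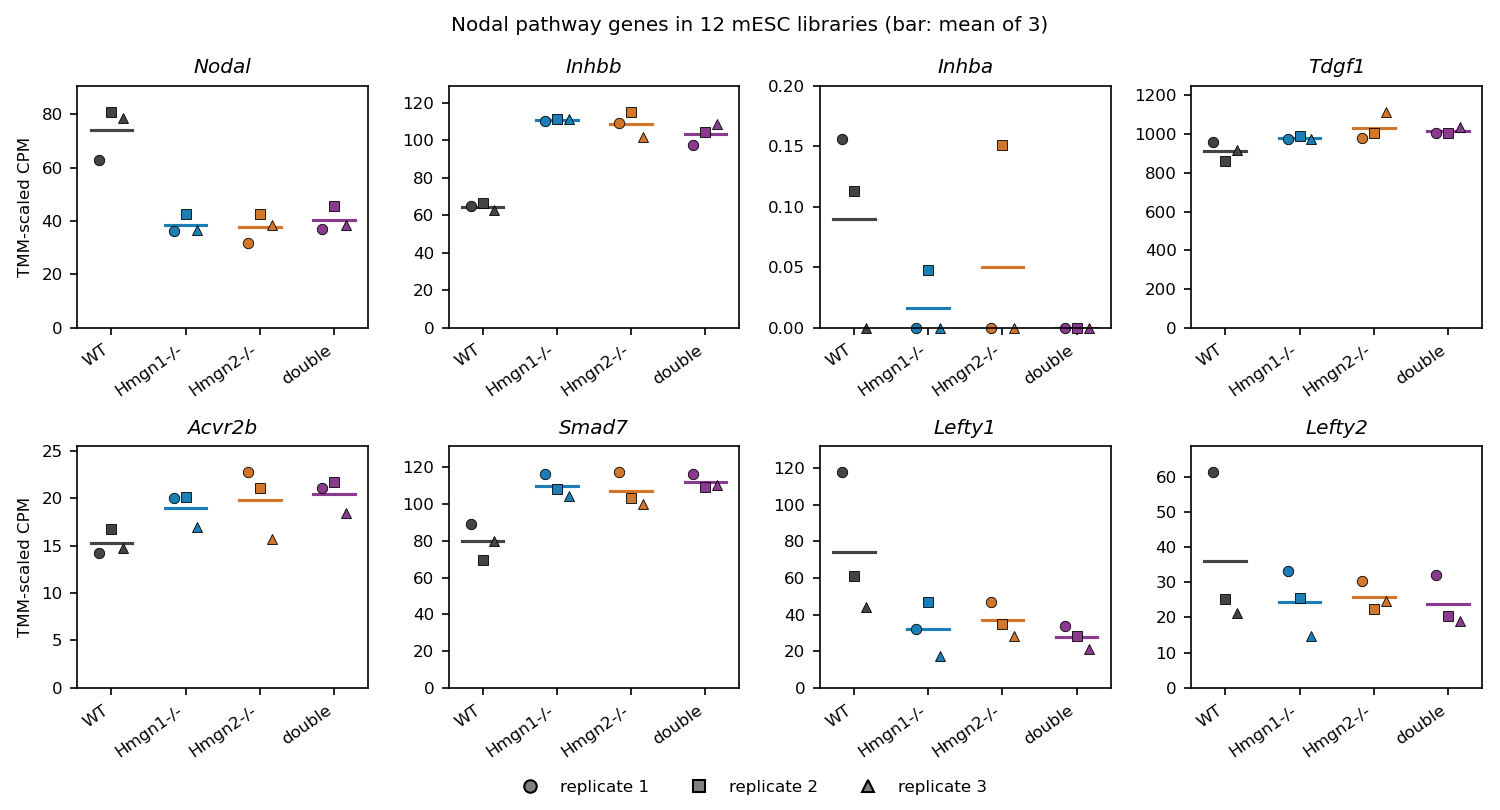
TMM-scaled CPM of the 8 genes (vertical axes, each from 0) in WT, *Hmgn1*-/-, *Hmgn2*-/- and double knockout mESCs. Points are the 3 libraries of a genotype, with a marker for each replicate number, and bars are their means; *Nodal* lies lower, and *Inhbb*, *Smad7* and, by little, *Tdgf1* lie higher in all 9 knockout libraries than in the 3 WT libraries. The share of all genes that separate in this way was not counted.

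Of the ligands, *Nodal* (chromosome 10, 61417972 to 61425338 of GRCm38, plus strand) gave the pathway its name. Its level was 62.9, 80.9 and 78.5 CPM in WT mESCs and 36.3, 42.6 and 36.7 CPM in *Hmgn1*-/- mESCs. It was 31.6, 42.5 and 38.6 CPM in *Hmgn2*-/- mESCs and 37.1, 45.6 and 38.4 CPM in the double knockout. All 9 knockout libraries lay below all 3 WT libraries, and the knockout lines overlapped each other. In bulk RNA, fewer cells that express a gene and less of its RNA per cell cannot be told apart.

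*Hmgn1*-/- mESCs had a *Nodal* log2 FC of -0.94 (standard error 0.0958, 95% interval -1.14 to -0.73, adjusted *p* = 8.44e-06, quasi-likelihood test of edgeR, Benjamini-Hochberg adjusted, lower in 3 of 3 libraries). *Hmgn2*-/- mESCs had one of -0.97 (standard error 0.128, 95% interval -1.25 to -0.69, adjusted *p* = 0.000416, same edgeR test, lower in 3 of 3). In the double knockout it was -0.87 (standard error 0.1, 95% interval -1.09 to -0.65, adjusted *p* = 2.31e-05, same edgeR test, lower in 3 of 3). *Nodal* was thus past the limit on *p* and short of the limit on size in each comparison, and all 3 intervals held the limit of -1. Leaving out single libraries carried it past that limit for *Hmgn1*-/- mESCs without WT replicate 1 (-1.05) or without *Hmgn1*-/- replicate 2 (-1.02). The same held for *Hmgn2*-/- mESCs without WT replicate 1 (-1.08) or without *Hmgn2*-/- replicate 2 (-1.07). With any of the 6 libraries of a comparison left out, the adjusted *p* of *Nodal* stayed under 0.01.

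*Inhbb* (chromosome 1, 119415465 to 119422248, minus strand) encodes the beta B subunit, which forms activin B as a homodimer and inhibin B together with the alpha subunit. Its level was 64.7, 66.3 and 62.7 CPM in WT mESCs and 110.2, 111.4 and 111.4 CPM in *Hmgn1*-/- mESCs. It was 109, 115 and 102 CPM in *Hmgn2*-/- mESCs and 97.4, 104.7 and 108.7 CPM in the double knockout. The WT libraries lay close together, and all 9 knockout libraries lay above them, with no overlap. *Hmgn1*-/- mESCs had a log2 FC of 0.79 (standard error 0.0569, adjusted *p* = 3.76e-07, quasi-likelihood test of edgeR, Benjamini-Hochberg adjusted, higher in 3 of 3 libraries). *Hmgn2*-/- mESCs had 0.76 (adjusted *p* = 8.48e-05, standard error 0.0792) and the double knockout 0.69 (adjusted *p* = 3.08e-06, standard error 0.0632), by the same edgeR test and again in 3 of 3 libraries each. The 95% intervals reached 0.91, 0.94 and 0.82 at their upper ends, below the limit of 1. *Nodal* RNA and *Inhbb* RNA therefore moved in opposite directions in each knockout line.

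*Inhba* (chromosome 13, 16011851 to 16031621, plus strand) encodes the beta A subunit, which forms activin A. It had 5, 2 and 0 counts in the WT libraries, 0, 1 and 0 in *Hmgn1*-/- mESCs, 0, 4 and 0 in *Hmgn2*-/- mESCs, and 0 in each double knockout library. These 12 counts over all libraries were too few for the edgeR test, and no difference was detectable at this depth. DESeq2 gave an unadjusted *p* of 0.245, 0.69 and 0.111 for *Hmgn1*-/-, *Hmgn2*-/- and double knockout mESCs against WT, and no adjusted *p*. The floor of 3 counts stands for 0.0954 to 0.173 CPM, depending on the library, and covers counting error only.

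The sequence just before the transcription start is shown for *Nodal* and *Inhbb*, which moved in opposite directions, and for *Tdgf1*, which stayed near its WT level. RefSeq promoter sequences of GRCm38.p6 were matched for 5 of the 8 genes, and *Lefty1*, *Lefty2* and *Smad7* had no entry. Each line holds the 250 bases up to the start, 5′ to 3′ on the strand of the gene. Capitals mark matches on either strand to the SMAD-binding motifs CAGAC and GGCGC or the FOXH1-type motifs AATCCACA and AATACACA. The windows are chr10:61417722-61417971 on the plus strand for *Nodal*, chr1:119422249-119422498 on the minus strand for *Inhbb* and chr9:110946159-110946408 on the minus strand for *Tdgf1*.
Nodal: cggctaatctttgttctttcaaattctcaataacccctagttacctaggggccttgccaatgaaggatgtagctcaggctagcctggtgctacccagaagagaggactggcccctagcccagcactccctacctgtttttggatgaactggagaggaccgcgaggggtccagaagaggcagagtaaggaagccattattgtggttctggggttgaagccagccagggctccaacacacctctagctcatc
Inhbb: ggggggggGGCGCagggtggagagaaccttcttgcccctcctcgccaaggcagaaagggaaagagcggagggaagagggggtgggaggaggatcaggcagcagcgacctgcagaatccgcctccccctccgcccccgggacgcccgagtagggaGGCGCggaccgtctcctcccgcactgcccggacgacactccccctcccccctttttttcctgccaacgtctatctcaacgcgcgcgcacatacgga
Tdgf1: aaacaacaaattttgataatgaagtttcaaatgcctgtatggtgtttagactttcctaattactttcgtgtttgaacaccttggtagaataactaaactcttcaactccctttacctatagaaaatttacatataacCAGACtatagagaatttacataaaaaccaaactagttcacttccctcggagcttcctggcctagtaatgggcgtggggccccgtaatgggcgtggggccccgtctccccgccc

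The *Nodal* window held none of the 4 motifs, the *Inhbb* window held GGCGC at 2 places, and the *Tdgf1* window held CAGAC at 1 place. Of the matched windows not shown, that of *Acvr2b* held GGCGC at 3 places and CAGAC at 1 place, and that of *Inhba* held none. Among the 250-base windows of 32851 promoters, 42.2% held CAGAC, 32% held GGCGC, 0.718% held AATCCACA and 0.895% held AATACACA. The bases G and C made up 53.2% of the *Nodal* window, 68% of the *Inhbb* window and 42% of the *Tdgf1* window. A match describes letters in a window and no site, and enhancers further away were not searched.

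*Tdgf1* (chromosome 9, 110939603 to 110946158, minus strand) encodes Cripto, the co-receptor for Nodal. Its level was 961, 859.5 and 919.8 CPM in WT mESCs and 976.5, 991 and 975 CPM in *Hmgn1*-/- mESCs. It was 978, 1005 and 1115 CPM in *Hmgn2*-/- mESCs and 1004, 1005 and 1037 CPM in the double knockout. All 9 knockout libraries lay above the 3 WT libraries, but by little. The log2 FC was 0.11, 0.19 and 0.16 in *Hmgn1*-/-, *Hmgn2*-/- and double knockout mESCs, with adjusted *p* of 0.162, 0.151 and 0.0425 from the same edgeR test, each higher in 3 of 3 libraries. In WT mESCs, per kb of exon, *Tdgf1* had the highest level of the 8 genes at 348 ± 19.4 CPM per kb (SD, n = 3).

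Per kb of exon and as means of the 3 WT libraries, *Lefty1* followed at 42.3 ± 22 CPM per kb, *Nodal* at 35.4 ± 4.67, *Smad7* at 17.6 ± 2.19, *Inhbb* at 15.2 ± 0.433, *Lefty2* at 13.8 ± 8.43 and *Acvr2b* at 3.88 ± 0.346 CPM per kb (SD, n = 3 each). *Inhba* was last at 0.0141 ± 0.0126 CPM per kb. In this order *Lefty1* and *Nodal* differed by less than the SD of *Lefty1*, and *Lefty2* differed from *Inhbb* and from *Smad7* by less than its own SD. Without WT replicate 1, *Lefty1* was at 29.9 CPM per kb, below *Nodal* at 38.04, and *Lefty2* was at 8.94 CPM per kb. *Lefty2* stood above *Inhbb* without WT replicate 2 (15.8 against 14.97 CPM per kb) or WT replicate 3 (16.6 against 15.4 CPM per kb). In the 3 knockout lines *Inhbb* stood at 24.4 to 26.1 CPM per kb and *Nodal* at 17.9 to 19.3 CPM per kb, so that their order was the opposite of that in WT mESCs.

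*Acvr2b* (chromosome 9, 119402118 to 119434995, plus strand) encodes a type II receptor that binds activins and Nodal. Its level was 14.2, 16.8 and 14.8 CPM in WT mESCs and 20.02, 20.1 and 16.9 CPM in *Hmgn1*-/- mESCs. It was 22.8, 21.1 and 15.8 CPM in *Hmgn2*-/- mESCs and 21.1, 21.7 and 18.4 CPM in the double knockout. The *Hmgn1*-/- and double knockout libraries lay above all WT libraries, and *Hmgn2*-/- replicate 3 lay within the WT range. The log2 FC was 0.33 (adjusted *p* = 0.0316), 0.4 (adjusted *p* = 0.0711) and 0.43 (adjusted *p* = 0.00586) in *Hmgn1*-/-, *Hmgn2*-/- and double knockout mESCs by the same edgeR test, above the WT mean in 3 of 3 libraries each. In the double knockout, with single libraries left out, the adjusted *p* stayed under 0.01 only without WT replicate 2 (0.00592) or double knockout replicate 3 (0.00606). It was 0.0108 to 0.0341 without any of the other 4 libraries. DESeq2 gave an adjusted *p* of 0.00211 there, within a range of 0.00171 to 0.0341 over all alternatives. In *Hmgn2*-/- mESCs it fell to 0.00401 without *Hmgn2*-/- replicate 3, and over all alternatives it ran from 0.00401 to 0.225.

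The other receptors and the SMAD genes, are described as a group. *Acvr1b* and *Acvr2a* had log2 FCs from 0.1 to 0.31 over the 3 comparisons with WT, and *Acvr1c* had 0 counts in every library. *Smad2*, *Smad3* and *Smad4* had log2 FCs from -0.24 to 0.18. None of these 5 tested genes was called by edgeR in any comparison with WT, with an unadjusted *p* under 0.05 for *Acvr1b* and *Smad4* in *Hmgn1*-/- mESCs and again in the double knockout, and none was called by DESeq2. The 95% intervals lay between -0.2 and 0.16 for *Smad2* in all 3 comparisons, and between -0.54 and 0.33 for *Smad3*. DESeq2 gave *Acvr1b* an adjusted *p* of 0.00952 in the double knockout at a log2 FC of 0.31, where edgeR gave 0.0141.

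*Lefty1* (chromosome 1, 180935022 to 180938400, plus strand) and *Lefty2* (chromosome 1, 180893108 to 180899103, plus strand) encode secreted inhibitors of Nodal and are targets of the pathway. The genes lie 35.9 kb apart, and their coding parts, 1104 bases each, are identical at 1014 positions (91.8%), with a longest identical run of 140 bases.

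Of the 50-base windows of the *Lefty1* transcript, 17.9% also occurred in the *Lefty2* transcript, against 4.8% of the 100-base and 0 of the 150-base windows. For *Lefty2* against *Lefty1* the shares were 11.6%, 3.07% and 0. The reads were paired and 150 bases long, so a whole read without errors matches only 1 of these transcripts in full. The sources used here do not say how reads that align to both were counted, nor whether the counting used the strand, and the split between *Lefty1* and *Lefty2* was not tested further.

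*Lefty1* was at 117.8, 61.3 and 44 CPM in WT mESCs, 32, 46.7 and 17.3 in *Hmgn1*-/- mESCs, 47.2, 35.2 and 28.2 in *Hmgn2*-/- mESCs, and 33.6, 28.5 and 21.1 in the double knockout. WT replicate 1 was the highest of the 12 libraries. Both single knockouts overlapped WT mESCs at WT replicate 3, whereas the double knockout lay below all 3 WT libraries. *Hmgn1*-/- mESCs had a log2 FC of -1.22 (adjusted *p* = 0.0118, standard error 0.325), *Hmgn2*-/- mESCs one of -1 (adjusted *p* = 0.0391, standard error 0.302) and the double knockout one of -1.42 (adjusted *p* = 0.00135, standard error 0.271) by the Benjamini-Hochberg adjusted test of edgeR. The libraries below the WT mean numbered 3 of 3 in each, and only the double knockout was called.

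That call depended on single libraries and on the tool. Without WT replicate 1 the log2 FC of *Lefty1* in the double knockout was -0.91 (adjusted *p* = 4.72e-05), short of the limit on size, and without double knockout replicate 3 it was -1.26 (adjusted *p* = 0.012), short of the limit on *p*. DESeq2 gave -1.42 with an adjusted *p* of 0.0145, and over all alternatives the adjusted *p* ran from 2.53e-08 to 0.0145. With *Lefty1* and *Lefty2* counted as 1 gene, the log2 FC in the double knockout was -1.1 (adjusted *p* = 0.00875), and -0.54 without WT replicate 1 (adjusted *p* = 0.00441), the latter an alternative chosen after seeing the data. In *Hmgn1*-/- mESCs *Lefty1* was called without WT replicate 3 (-1.5) or without *Hmgn1*-/- replicate 2 (-1.59), and without WT replicate 1 it was at -0.71. In *Hmgn2*-/- mESCs it was not called with any library left out, and without WT replicate 1 it was at -0.5. Within same-numbered replicates *Lefty1* was lower than in WT mESCs in 3 of 3 pairs in each line. With the replicate number as a block in the fit, *Lefty1* was called in *Hmgn1*-/- mESCs (-1.21, adjusted *p* = 1.16e-06) and in the double knockout (-1.35, adjusted *p* = 8.73e-07), and not in *Hmgn2*-/- mESCs (-0.92, adjusted *p* = 0.00198). With no filter beyond 1 count it was called in *Hmgn1*-/- mESCs (-1.22, adjusted *p* = 9.04e-07) and in *Hmgn2*-/- mESCs (-1, adjusted *p* = 0.00547). The adjusted *p* over all alternatives spanned 9.04e-07 to 0.118 for *Hmgn1*-/- mESCs, and 0.00198 to 0.349 for *Hmgn2*-/- mESCs. Over the same alternatives the log2 FC ran from -1.59 to -0.42 and from -1.28 to -0.27.

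*Lefty2* was at 61.3, 25.3 and 21.4 CPM in WT mESCs, 33.2, 25.4 and 14.6 in *Hmgn1*-/- mESCs, 30.4, 22.4 and 24.7 in *Hmgn2*-/- mESCs, and 32.05, 20.5 and 19.04 in the double knockout. Apart from WT replicate 1, the 4 genotypes overlapped. The log2 FC was -0.57, -0.48 and -0.6 in *Hmgn1*-/-, *Hmgn2*-/- and double knockout mESCs, with adjusted *p* of 0.229, 0.354 and 0.171 from the same edgeR test, and 3 of 3 libraries below the WT mean in each. Without WT replicate 1 the direction turned, to 0.08, 0.16 and 0.05. Replicate 1 was also the highest library of each knockout line, and within same-numbered replicates *Lefty2* was lower in 3 of 3 pairs in the double knockout and in 2 of 3 in each single knockout. With the replicate number as a block in the fit, the log2 FC was -0.51, -0.34 and -0.5, with adjusted *p* of 0.00095, 0.294 and 0.00494, none past the limit on size. Over all alternatives the adjusted *p* of *Lefty2* ran from 0.00095 to 0.781 in *Hmgn1*-/- mESCs, 0.0869 to 0.625 in *Hmgn2*-/- mESCs and 0.00494 to 0.836 in the double knockout.

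**Figure D2:**
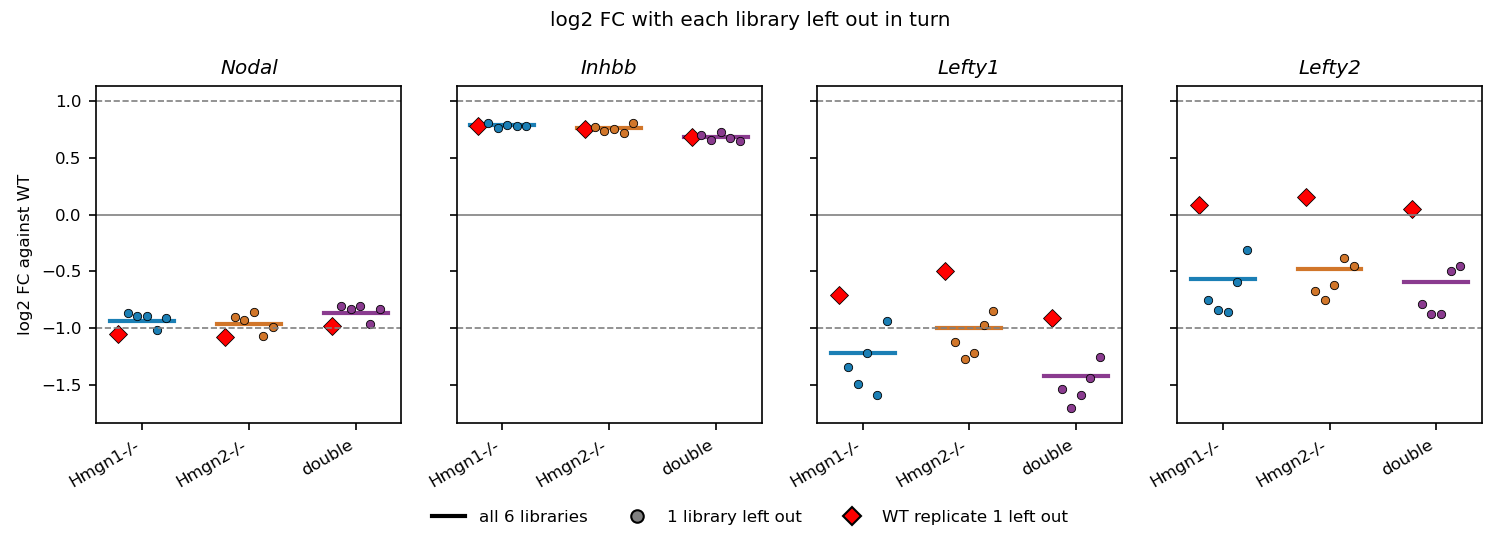
Log2 FC against WT (vertical axis) of *Nodal*, *Inhbb*, *Lefty1* and *Lefty2* in each knockout line, with all 6 libraries (line), with each library left out in turn (circles) and without WT replicate 1 (red diamonds). Dashed lines mark the limits of -1 and 1; *Inhbb* stays between 0.65 and 0.81, while *Lefty2* is above 0 only without WT replicate 1.

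*Smad7* (chromosome 18, 75367529 to 75395935) encodes an intracellular inhibitor that acts on the type I receptor and is itself a target of the pathway. Its level was 89.4, 69.6 and 79.9 CPM in WT mESCs and 116, 107.9 and 104.6 CPM in *Hmgn1*-/- mESCs. It was 117, 103 and 100.1 CPM in *Hmgn2*-/- mESCs and 116, 109.5 and 110.4 CPM in the double knockout. All 9 knockout libraries lay above the 3 WT libraries. The log2 FC was 0.46 in *Hmgn1*-/- mESCs (adjusted *p* = 0.00084), 0.43 in *Hmgn2*-/- mESCs (adjusted *p* = 0.0136) and 0.49 in the double knockout (adjusted *p* = 0.000403) by the same edgeR test, higher in 3 of 3 libraries each. In *Hmgn2*-/- mESCs the adjusted *p* was under 0.01 without WT replicate 1 (0.00944) or *Hmgn2*-/- replicate 3 (0.00427), within a range of 0.00192 to 0.0732 over all alternatives.

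Over the 7 genes that passed the filter on low counts, edgeR called 0 in *Hmgn1*-/- mESCs, where 5.98% of 13917 genes were called, and 0 in *Hmgn2*-/- mESCs, where 5.15% of 14047 genes were. In the double knockout it called 1, *Lefty1*, where 6.3% of 14128 genes were called. DESeq2 called 0 in each of the 3 comparisons. At an unadjusted *p* under 0.05 in edgeR there were 5, 6 and 6 of the 7 genes, against 5382 of 13917, 4358 of 14047 and 5499 of 14128 of all genes. Without the limit on size, at an adjusted *p* under 0.01, *Inhbb* and *Smad7* were higher and *Nodal* lower in *Hmgn1*-/- mESCs, which is 3 genes where 17.3% of all genes passed (7.28% higher and 10.1% lower). *Inhbb* was higher and *Nodal* lower in *Hmgn2*-/- mESCs, which is 2 genes where 9.97% passed (3.3% higher and 6.66% lower). *Inhbb*, *Smad7* and *Acvr2b* were higher and *Nodal* and *Lefty1* lower in the double knockout, which is 5 genes where 18% passed (7.79% higher and 10.2% lower). The median log2 FC of the 7 genes was 0.11, 0.19 and 0.16 in *Hmgn1*-/-, *Hmgn2*-/- and double knockout mESCs, and that of all genes tested was 0, 0.01 and 0.

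**Figure D3:**
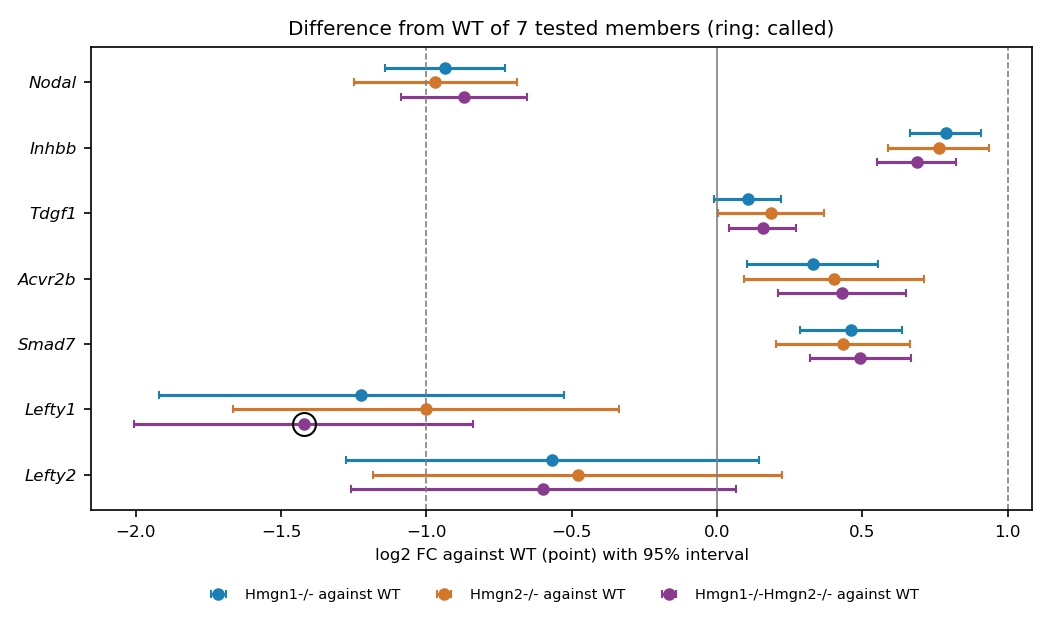
Log2 FC against WT (horizontal axis, points) with 95% intervals (bars) of the 7 genes tested, in 3 comparisons that share their WT libraries. The ring marks the only call, *Lefty1* in the double knockout, and dashed lines mark -1 and 1.

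The 8 genes belong to a list of 49 genes of Nodal, activin and TGF-beta signalling, of which 42 were tested against WT. In *Hmgn1*-/- mESCs 5 were called, in *Hmgn2*-/- mESCs 3 and in the double knockout 4, where 5.98%, 5.15% and 6.3% of all genes were. All of these were lower, as were 707 of 832, 615 of 724 and 706 of 890 of the calls over all genes, and 1 of those in *Hmgn1*-/- mESCs is not described. *T* (Brachyury), a mesoderm gene that the pathway induces, was at 1.6, 4.13 and 5.45 CPM in WT mESCs and between 0.152 and 0.576 CPM in the 9 knockout libraries. Its log2 FC was -3.71, -2.89 and -3.37 in *Hmgn1*-/-, *Hmgn2*-/- and double knockout mESCs. *Tgfb2*, a ligand of the TGF-beta arm, was at 1.75, 2.38 and 2.92 CPM in WT mESCs and between 0.228 and 0.477 CPM in the knockout libraries, with log2 FCs of -2.45, -2.85 and -3.05. *Fst*, which encodes the activin-binding protein follistatin, was at 3.66, 5.49 and 7.22 CPM in WT mESCs and between 1.37 and 2.62 CPM in the knockout libraries. Its log2 FC was -1.29, -1.71 and -1.15. The groups did not overlap for any of these genes, all of which are low in mESCs.

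*T* had 51, 73 and 157 counts in the WT libraries and 4 to 15 in the knockout libraries, and *Tgfb2* had 56, 42 and 84 against 6 to 10, so both passed the filter on low counts through WT mESCs. A gene that passes in this way can only be lower in the knockout lines. Both stayed called in each of the 3 comparisons with any library left out, which for this reason carries no weight. Neither was tested where at least 10 counts were required in every library. *Fst* in the double knockout was not called without WT replicate 3 (-0.87) or double knockout replicate 1 (-1.06). *Tgfbr3*, a co-receptor of the TGF-beta arm, was at 1.97, 2.43 and 1.8 CPM in WT mESCs and 0.959, 0.859 and 0.963 CPM in *Hmgn1*-/- mESCs, where it was called (log2 FC -1.13). That call was lost without WT replicate 2 (-1.02), *Hmgn1*-/- replicate 1 (-1.15), replicate 2 (-1.09) or replicate 3 (-1.16).

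The median log2 FC of the list was 0.01, -0.03 and -0.02 in the 3 comparisons, close to that of all genes. Without the limit on size, 4 were higher and 8 lower in *Hmgn1*-/- mESCs, 2 and 4 in *Hmgn2*-/- mESCs, and 5 and 6 in the double knockout. Over all genes 7.28% were higher and 10.1% lower, 3.3% and 6.66%, and 7.79% and 10.2% in the same order. *Pcsk6* passed in all 3 lines, *Ski* (higher) and *Eomes* (lower) in *Hmgn1*-/- mESCs and the double knockout, and *Skil* (lower) in *Hmgn1*-/- mESCs, all named after their values were seen. *Pcsk6*, a convertase that can cleave Nodal, was higher in all 3 lines (log2 FC 0.6, 0.54 and 0.57). Of the list, *Gdf1*, *Cer1* and *Acvr1c* had 0 counts in every library, and *Inhba*, *Cfc1*, *Lhx1* and *Tgfb3* were too low for the test.

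**Figure D4:**
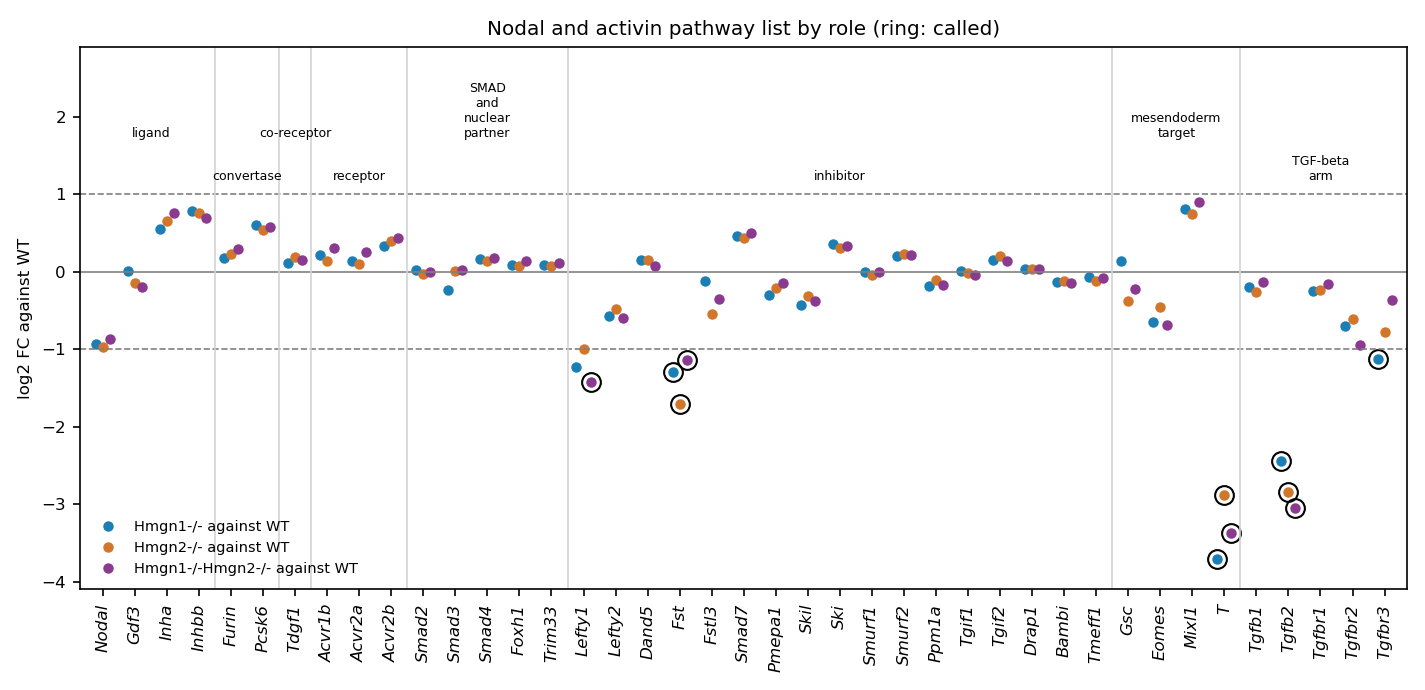
Log2 FC against WT (vertical axis) of tested genes of the pathway list, 1 of which is not drawn, ordered by role, in 3 comparisons that share their WT libraries. Rings mark calls, all of which lie below -1, and dashed lines mark -1 and 1.

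The knockout lines were also compared with each other. Of the 7 genes tested, edgeR and DESeq2 called 0 between *Hmgn2*-/- and *Hmgn1*-/- mESCs, where edgeR called 0.176% of 13648 genes. They called 0 between the double knockout and *Hmgn1*-/- mESCs, where edgeR called 0.511% of 13710 genes, and 0 between the double knockout and its parent line, the *Hmgn2*-/- mESCs, where edgeR called 0.0434% of 13816 genes. At an unadjusted *p* under 0.05 edgeR had 0 of the 7 genes in each, against 437, 1306 and 613 of all genes, and DESeq2 had 0, 0 and 1, which was *Lefty1* between the double knockout and *Hmgn2*-/- mESCs, with an adjusted *p* of 1. The 95% interval of the double knockout against *Hmgn2*-/- mESCs was -0.17 to 0.38 for the log2 FC of *Nodal* and -0.24 to 0.1 for that of *Inhbb*. For *Lefty1* it was -0.86 to 0.03, wide enough to hold a sizeable difference. With the replicate number as a block the log2 FC of *Lefty1* in that comparison was -0.41 (adjusted *p* = 0.00958, within a range of 0.00958 to 1 over all alternatives), short of the limit on size.

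The departure from additivity compares the effect of both losses together with the sum of the effects of the single losses, as a contrast of log2 levels in a fit of all 12 libraries. For *Nodal* the single knockouts sum to -1.92 and the double knockout stood at -0.88, a departure of 1.04 (standard error 0.172, 95% interval 0.68 to 1.41, adjusted *p* = 0.000874, Benjamini-Hochberg adjusted edgeR test). For *Inhbb* the sum was 1.54 and the double knockout stood at 0.68, a departure of -0.85 (standard error 0.0905, 95% interval -1.05 to -0.66, adjusted *p* = 2.11e-05, same edgeR test). In both genes the double knockout was no further from WT mESCs than the single knockouts were, in 3 of 3 libraries beyond the WT range. For *Smad7* the departure was -0.39 (adjusted *p* = 0.0455), and for *Lefty1* it was 0.81 with a 95% interval of -0.21 to 1.83 that leaves its sign unsettled. Without WT replicate 1 the departure of *Lefty1* was 0.3, without *Hmgn1*-/- replicate 3 it was 0.51, and over all libraries left out singly it reached 1.17.

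By this contrast 1 of the 7 genes was called, *Nodal*, where 3.48% of 14323 genes were called. Without the limit on size *Nodal* and *Inhbb* passed, 1 in each direction, where 6.32% of all genes did (4.13% higher and 2.19% lower), and 3 had an unadjusted *p* under 0.05, against 3707 of 14323 of all genes. The departure of *Nodal* fell short of the limit of 1 without WT replicate 2 (0.98), WT replicate 3 (0.9995), *Hmgn2*-/- replicate 1 (0.93) or double knockout replicate 2 (0.95), and its adjusted *p* stayed under 0.01 with any of the 12 libraries left out. Of the pathway list, *Fst* (1.87), *Tgfb2* (2.26) and *Tgfbr3* (1.55) were also called. For *Tgfb2* the sum of the single effects corresponds to 0.0591 CPM, under the 0.0968 to 0.135 CPM that 3 counts stand for in the double knockout libraries, so a fall of that size could not have been measured and its departure carries no weight. *Fst* stayed called whichever of the 12 libraries was left out, whereas *Tgfb2* and *Tgfbr3* kept their calls in 1 of 12, without WT replicate 1 and without *Hmgn2*-/- replicate 2, respectively.

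**Figure D5:**
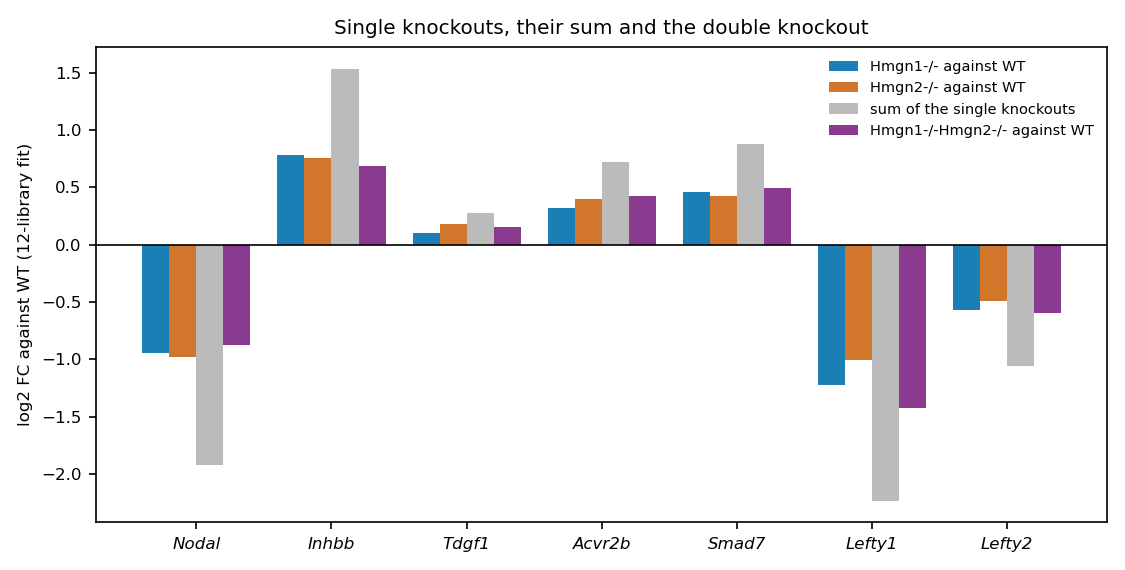
Log2 FC against WT (vertical axis) of the 7 genes tested in the single knockouts, the sum of these values, and the double knockout, all from a fit of 12 libraries; no errors are drawn. For *Nodal* the sum is -1.92 and the double knockout is at -0.88.

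The 11548 genes averaging 50 counts or more were compared with *Lefty1*, the called member. The genes whose pattern over the 12 libraries was nearest to its own were *Vwf*, *Kif1a* and *Tmem63a*. Likeness was measured as the root mean square difference in log2 CPM, each gene centred on its own mean, and came to 0.248, 0.26 and 0.288, against a median of 0.715 over all genes compared. *Vwf* was at 5.72, 4.92 and 3.47 CPM in WT mESCs and between 1.33 and 3.1 CPM in the 9 knockout libraries. Without WT replicate 1, which had the highest *Lefty1* level, *Vwf* (0.206) and *Tmem63a* (0.23) were still the nearest 2 genes, *Kif1a* (0.244) was at rank 4 behind *Cacna1b* (0.241), and the median was 0.532 over 11 libraries, an alternative chosen after seeing the data.

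Markers of other cell states moved with the genotypes as well. The summed level of 7 primitive endoderm markers, with *Cubn* the most abundant, was 13.2, 15.3 and 16.04 CPM in WT mESCs, 118.9, 90.8 and 96.9 in *Hmgn1*-/- mESCs, 145.7, 125.5 and 89.8 in *Hmgn2*-/- mESCs, and 303.9, 300.4 and 280.6 in the double knockout. All 7 were above 3 counts in every library. In the 3 comparisons with WT 6, 6 and 7 of the 7 were called higher, against 125 of 13917, 109 of 14047 and 184 of 14128 of all genes. *Sox17* had 16, 8 and 10 counts in the WT libraries and 85 to 308 in the knockout libraries. It passed the filter on low counts through the knockout libraries and could only be higher, so its part in these calls carries no weight. The sum of 6 formative and primed markers, with *Dnmt3b* the most abundant, was 685, 731 and 657.5 CPM in WT mESCs, 600.6, 685.5 and 586.5 in *Hmgn1*-/- mESCs, 635, 612 and 523 in *Hmgn2*-/- mESCs, and 586, 549 and 516 in the double knockout. In the 3 comparisons 2, 2 and 3 of the 6 were called lower, against 707 of 13917, 615 of 14047 and 706 of 14128 of all genes. Without the limit on size 5 of the 6 were lower in each, against 10.1%, 6.66% and 10.2% of all genes. *Dnmt3b* overlapped WT mESCs, whereas *Fgf5*, *Otx2*, *Pou3f1*, *Sox3* and *Fgf15* were lower in all 9 knockout libraries. Of the 6, 5 were above 3 counts in every library. *Fgf5* had 171, 90 and 106 counts in the WT libraries and 2 to 12 in the knockout libraries. It passed the filter on low counts through WT mESCs and could only be lower in the knockout lines. Its part in the counts of lower genes therefore carries no weight.

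The sum of 7 fibroblast markers, with *Thy1* the most abundant, was 20.3, 16.4 and 20.1 CPM in WT mESCs, 5.52, 5.2 and 5.5 in *Hmgn1*-/- mESCs, 5.3, 5.94 and 5.89 in *Hmgn2*-/- mESCs, and 5.09, 7.86 and 6.6 in the double knockout. *Lum* was at 0 throughout, and 3 of the 7 were above 3 counts in every library, each called lower in each line. Of these, *Col1a2* had 113, 22 and 94 counts in the WT libraries and 4 to 17 in the knockout libraries. It passed the filter on low counts through WT mESCs and could only be lower, so its calls carry no weight. Over all genes 707 of 13917, 615 of 14047 and 706 of 14128 were called lower. The sum of 5 trophoblast markers, with *Tfap2c* the most abundant, was 49.5, 52.9 and 63.2 CPM in WT mESCs, 32.3, 37.7 and 37.3 in *Hmgn1*-/- mESCs, 41.1, 39.7 and 38.9 in *Hmgn2*-/- mESCs, and 28.7, 30.8 and 32.9 in the double knockout. In each line 2 of the 5 were called lower, against the same counts over all genes. *Krt7* and *Hand1* were lower in all 9 knockout libraries, whereas *Tfap2c*, *Cdx2* and *Elf5* overlapped WT mESCs over these libraries. The part of these cell states in the levels of the Nodal pathway genes was not tested.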

How the data were processed

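The counts per gene deposited by the authors were used as raw counts of 12 poly-A libraries, aligned to mm10 with STAR. The counting program, its annotation and its use of strand were not stated. The 8 genes were found by symbol in the 4 tables, which were joined. Pairwise comparisons used edgeR 4.0.16 in R 4.3.3 on the 6 libraries concerned, with filterByExpr, TMM scaling, the quasi-likelihood test and Benjamini-Hochberg adjustment over all genes tested. The departure from additivity used all 12 libraries. Calls needed an adjusted *p* under 0.01 and a log2 FC of at least 1 in size. Named genes were the 8 members, pathway genes called in any pairwise comparison (1 is not described), the receptors and SMAD genes as a group, the 3 genes nearest in pattern to a called member, and *Hmgn1* and *Hmgn2*; other genes were named after their values were seen. The members and lists were chosen with earlier results of these data known. Alternatives were DESeq2 1.42.0, RLE factors, other filters and limits, a single fit of 12 libraries, thinned counts, a replicate block and each library left out. Levels per kb without single WT libraries were added after seeing the data. The code was tested on simulated data. Gene positions and exon lengths came from GENCODE M21.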

Additional observations from a re-analysis of the deposited data

Results flagged for a closer look

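The effect of *Hmgn1* loss differed between mESCs that had *Hmgn2* and mESCs that lacked it, by a test of the difference itself, for *Nodal* and *Inhbb* RNA. For *Nodal* the log2 effect of *Hmgn1* loss in *Hmgn2*-/- mESCs minus that in WT mESCs was 1.04 (adjusted *p* = 0.000874, edgeR's quasi-likelihood test on 12 libraries). For *Inhbb* this difference was -0.85 (adjusted *p* = 2.11e-05, same edgeR test). *Nodal* fell below the WT level and *Inhbb* rose above it in 9 of 9 knockout libraries. The double knockout descends from the *Hmgn2*-/- line, so a property of that line and the effect of the genotype cannot be told apart. In the same fit the log2 FC of *Nodal* was -0.94, -0.98 and -0.88 in *Hmgn1*-/-, *Hmgn2*-/- and double knockout mESCs. That of *Inhbb* was 0.78, 0.75 and 0.68. Both differences thus rest on how far the single WT line lay from all edited lines. A property of the WT line, or one shared by edited lines, cannot be told apart from the effect of the genotype either.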

How the results depend on the processing

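Over the comparisons, a count of calls was taken as moved where it changed by more than 1.5 times, or to or from 0. This held for 26 of 144 values with 1 library left out, 26 of 165 under the other alternatives and 2 of 21 under the replicate block. Of the log2 FCs of named genes, 450 of 522 kept their direction and their side of the limits with 1 library left out, 27 reversed, 37 fell back across the limits and 8 passed them. Under the other alternatives 572 of 597 kept both, 19 passed the limits, 6 fell back and 0 reversed. The alternatives that changed only a limit used the same log2 FCs, so none could reverse there. The cause was not tested for any of the changes below, apart from the limits named.

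Without a limit on size the members called were 3 in *Hmgn1*-/- mESCs (0 as reported), 2 in *Hmgn2*-/- mESCs (0), 5 in the double knockout (1) and 2 for the departure from additivity (1). The pathway genes called were 12 (5), 6 (3) and 11 (4) in the 3 comparisons with WT. Over all genes the calls were 2412 (832), 1400 (724) and 2544 (890) against WT, 48 (24) for *Hmgn2*-/- against *Hmgn1*-/-, 150 (70) for the double knockout against *Hmgn1*-/- and 905 (499) for the departure. With a limit of 0.05 on the adjusted *p*, 1 member was called in *Hmgn1*-/- mESCs and 1 in *Hmgn2*-/- mESCs, 798 genes for the departure, and 24 genes for the double knockout against *Hmgn2*-/- (6 as reported). With no filter beyond 1 count, 1 member was called in *Hmgn1*-/- and 1 in *Hmgn2*-/- mESCs, and 21 genes for the double knockout against *Hmgn2*-/-. With at least 10 counts in every library, 3, 1 and 2 pathway genes were called against WT. DESeq2 called 0 members in the double knockout, and 29 genes between the double knockout and *Hmgn2*-/-. A fit of all 12 libraries called 18 genes in that comparison.

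Replicates were not paired in the fits. Deviations from the genotype means correlated between same-numbered libraries from 0.064 to 0.59 (median 0.267, 18 pairs, across genes), against -0.491 to 0.089 (median -0.146, 36 pairs) for other numbers. The deviations of a genotype cancel over its replicates, so positive values for the same number push those for other numbers down. The gap is in part produced by this. In 12 of 12 libraries the correlation was highest with their own number, while 2 of the 18 pairs were at or under 0.1. With the replicate number as a block, 1 member, *Lefty1*, was called in *Hmgn1*-/- mESCs and 32 genes between the double knockout and *Hmgn2*-/-.

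When single libraries were left out, the members called ran from 0 to 2 in *Hmgn1*-/- mESCs, 0 to 1 in *Hmgn2*-/- mESCs, 0 to 1 in the double knockout and 0 to 1 for the departure. Pathway genes called numbered 3 to 6 in *Hmgn1*-/- mESCs, 1 to 4 for the departure, and all genes called between the double knockout and *Hmgn2*-/- from 1 to 12. The log2 FC of *Lefty2* ran from -0.86 to 0.0817 in *Hmgn1*-/- mESCs, -0.75 to 0.16 in *Hmgn2*-/- mESCs and -0.88 to 0.0521 in the double knockout, above 0 without WT replicate 1, and its departure from -0.19 to 0.75.

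Between the knockout lines, where no member was called, small log2 FCs changed sign with 1 library left out. For *Hmgn2*-/- against *Hmgn1*-/- they ran from -0.14 to 0.0773 for *Nodal*, -0.0759 to 0.0145 for *Inhbb*, -0.0344 to 0.2045 for *Acvr2b*, -0.0832 to 0.58 for *Lefty1*, -0.18 to 0.37 for *Lefty2* and -0.11 to 0.0098 for *Smad7*. For the double knockout against *Hmgn1*-/- they ran from -0.0289 to 0.14 for *Nodal*, -0.49 to 0.16 for *Lefty1*, -0.31 to 0.26 for *Lefty2* and -0.0001 to 0.0732 for *Smad7*. For the double knockout against *Hmgn2*-/- they ran from -0.0104 to 0.2017 for *Nodal*, -0.0628 to 0.0327 for *Tdgf1*, -0.1046 to 0.14 for *Acvr2b* and -0.39 to 0.0298 for *Lefty2*.

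Each genotype was 1 line, so line and genotype cannot be told apart. The depth left *Inhba* untested by edgeR, with 12 counts in all, and the low levels of *T*, *Tgfb2* and *Tgfbr3* rest on few counts. How reads that align to both *Lefty1* and *Lefty2* were counted was not stated.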
